A study of Homo sapiens with 6 samples.

Results

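The vascular endothelial growth factor (VEGF) ligands and receptors were followed in RCC10, a human cell line established from clear cell kidney carcinoma and lacking VHL function. The members were 8 genes taken by symbol: the ligands VEGFA, VEGFB, VEGFC and PGF, the receptor tyrosine kinases FLT1 and KDR, and the coreceptors NRP1 and NRP2. Of these 8 genes, 7 were among the 19009 genes of the count table, and FLT1 was not analysed here. KDR had no read in any library, which left 6 members among the 18273 genes tested, and 5 of them had more than 3 counts in every library. These libraries form 3 groups of RCC10 cells, with 2 poly(A) RNA libraries each. HIF double-knockout cells carried lentiviral guide RNAs against both HIF-1alpha and HIF-2alpha and were selected with puromycin. VHL-restored cells had received VHL by lentivirus. Parental cells, the control, carry no recorded vector, and no group with an empty vector or a non-targeting guide entered the comparisons. The culture medium of all 3 groups was DMEM plus 10% FBS. The sources used here do not state whether the engineered cells were clones or pools, nor whether the libraries of a group came from separate cultures. The p-values therefore rest on library-to-library spread alone, and that spread may be technical.

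VEGF ligands are secreted dimers that act on receptor tyrosine kinases of endothelial cells. VEGFA, the main driver of blood vessel growth, binds FLT1 and KDR, VEGFB and PGF bind FLT1, and VEGFC acts mainly on FLT4 and on lymphatic vessels. The neuropilins NRP1 and NRP2 have no kinase domain of their own and hold VEGF ligands or class 3 semaphorins next to the signalling receptors. In cells without VHL, the alpha subunits of the hypoxia-inducible factors (HIF) escape degradation, and VEGFA is among the best-known genes they switch on in kidney carcinoma.

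Total counts lay between 26085121 and 29929116 in HIF double-knockout libraries, between 27776717 and 27890958 in VHL-restored libraries, and between 22248126 and 29454611 in parental libraries. Levels are given as CPM (counts scaled to the TMM-normalized library size), as mean ± SD of 2 libraries. HIF1A averaged 30.6 ± 1.42 CPM in HIF double-knockout cells, 295.2 ± 12.6 CPM in VHL-restored cells and 71.2 ± 2.42 CPM in parental cells. EPAS1, the gene of HIF-2alpha, averaged 46.2 ± 2.54 CPM in HIF double-knockout cells, 366.1 ± 4.78 CPM in VHL-restored cells and 350.5 ± 2.21 CPM in parental cells. The messenger RNA of both targeted genes was lower in the knockout libraries than in the parental ones but not absent. VHL averaged 45.3 ± 2.87 CPM in HIF double-knockout cells, 687 ± 50.3 CPM in VHL-restored cells and 39.1 ± 0.461 CPM in parental cells. PAX8, a defining transcription factor of the renal epithelium, averaged 363 CPM in HIF double-knockout, 407 CPM in VHL-restored and 301 CPM in parental cells. CA9, a HIF target used as a marker of clear cell carcinoma, had at most 1 count in any library. Among the 10 renal and clear cell carcinoma markers, 5 rose and 4 fell in HIF double-knockout against parental cells (adjusted p under 0.05, edgeR). In VHL-restored against parental cells 3 rose and 5 fell. CDH16 averaged 1.73 CPM in HIF double-knockout, 22.1 CPM in VHL-restored and 30.3 CPM in parental cells. In the same order of groups PAX2 averaged 15.4, 1.11 and 1.67 CPM, and MME averaged 23.98, 10.1 and 63.8 CPM. Of 8 endothelial markers in the table, PECAM1 and ERG were at 0 in every library and 4 had no more than 3 counts in any. The summed level of these 8 markers was 5.50 to 6.14 CPM in HIF double-knockout, 3.90 to 4.11 CPM in VHL-restored and 2.34 to 2.63 CPM in parental libraries. ROBO4 made up 3.30 ± 0.169 CPM of that sum in HIF double-knockout cells, and without it the sum was 2.33 to 2.72 CPM in HIF double-knockout, 3.61 to 3.82 CPM in VHL-restored and 1.98 to 2.29 CPM in parental libraries. TEK averaged 0.219 ± 0.0197 CPM in HIF double-knockout cells, 1.75 ± 0.0999 CPM in VHL-restored cells and 0.423 ± 0.0259 CPM in parental cells. The 7 leukocyte markers summed to no more than 1.79 CPM in any library, with PTPRC and CD3E at 0. The 6 fibroblast markers summed to 3.73 to 3.76 CPM in HIF double-knockout, 22.9 to 24.4 CPM in VHL-restored and 17.4 to 17.5 CPM in parental libraries, with COL3A1 at 0.

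Promoter sequence is shown for the 3 expressed members with an entry in the RefSeq promoter table, since the experiment acts on a DNA-binding factor and these genes differed in direction: in VHL-restored against parental cells VEGFC and NRP2 rose and VEGFB fell. The windows are the 250 bases before the annotated start in GRCh38.p14, printed 5′ to 3′ on the gene's own strand. HIF binds short elements with the core ACGTG or GCGTG, and both cores were searched on both strands. Capitals mark each match.
VEGFC, chr4:176792923-176793172, minus strand: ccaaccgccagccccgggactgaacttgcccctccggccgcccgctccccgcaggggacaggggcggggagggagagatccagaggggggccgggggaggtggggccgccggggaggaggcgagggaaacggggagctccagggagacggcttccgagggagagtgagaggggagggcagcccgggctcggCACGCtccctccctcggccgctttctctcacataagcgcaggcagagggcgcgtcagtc
VEGFB, chr11:64234334-64234583, plus strand: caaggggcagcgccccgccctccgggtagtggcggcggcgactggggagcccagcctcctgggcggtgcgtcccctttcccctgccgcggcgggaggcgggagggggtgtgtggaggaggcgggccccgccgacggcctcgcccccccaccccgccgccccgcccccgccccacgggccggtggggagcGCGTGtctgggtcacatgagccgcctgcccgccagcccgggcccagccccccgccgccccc
NRP2, chr2:205682251-205682500, plus strand: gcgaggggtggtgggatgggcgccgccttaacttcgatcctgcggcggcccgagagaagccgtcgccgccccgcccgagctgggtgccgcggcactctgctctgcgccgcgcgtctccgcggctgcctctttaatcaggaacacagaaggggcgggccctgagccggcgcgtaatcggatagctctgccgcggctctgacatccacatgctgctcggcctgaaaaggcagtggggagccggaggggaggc
The VEGFC window held 1 match, CACGC, which is GCGTG on the other strand, 59 bases before the start. VEGFB had 1 GCGTG on the printed strand, 61 bases before the start. The NRP2 window had no match to either core, which says only that these letters are not in this window. Of 35116 promoter windows of the same length, 32.2% held GCGTG, 18.5% held ACGTG and 43.2% held either, so a match of this kind is common. All 3 windows were rich in G and C, with 74.0% in VEGFC, 82.8% in VEGFB and 70.0% in NRP2.

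VEGFA was much lower in both engineered lines. It had 123 and 123 CPM in HIF double-knockout libraries, 82.0 and 75.9 CPM in VHL-restored libraries, and 751 and 728 CPM in parental libraries. The 3 groups did not overlap, with parental libraries far above the rest and VHL-restored libraries lowest. VEGFA fell 6.02-fold in HIF double-knockout cells against parental cells (log2 fold change -2.59 ± 0.06 SE, adjusted p = 6.12e-26, edgeR quasi-likelihood test with Benjamini-Hochberg adjustment over all tested genes). In VHL-restored cells it fell 9.37-fold against parental cells (log2 fold change -3.23 ± 0.06 SE, adjusted p = 5.81e-28, edgeR). HIF double-knockout cells kept 1.56-fold more VEGFA messenger RNA than VHL-restored cells (log2 fold change 0.64 ± 0.06 SE, adjusted p = 1.28e-10, edgeR). Among 10820 genes with a mean of at least 5 CPM, 195 had a lower log2 fold change than VEGFA in HIF double-knockout cells and 98 had a lower one in VHL-restored cells, each against parental cells. These are bulk libraries, in which fewer cells expressing a gene and less of its RNA per cell cannot be told apart.

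VEGFC moved the other way. It had 66.5 and 64.9 CPM in HIF double-knockout libraries, 37.2 and 36.3 CPM in VHL-restored libraries, and 14.3 and 14.2 CPM in parental libraries. The order was the same for each library, with HIF double-knockout cells highest, parental cells lowest and no overlap. VEGFC rose 4.60-fold in HIF double-knockout cells (log2 fold change 2.20 ± 0.08 SE, adjusted p = 7.69e-21, edgeR) and 2.58-fold in VHL-restored cells (1.36 ± 0.08, adjusted p = 4.4e-15, edgeR), each against parental cells. Between the engineered lines it was 1.79-fold higher in HIF double-knockout cells (0.84 ± 0.07, adjusted p = 1.15e-11, edgeR). Of the 10820 genes at or above 5 CPM, 110 had a higher log2 fold change than VEGFC in HIF double-knockout cells and 257 in VHL-restored cells. The summed endothelial markers given above had the same order of groups with ROBO4 and another order without it, and their part in the VEGFC levels was not tested.

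VEGFB, which has been tied to lipid handling and cell survival more than to vessel growth, varied least of the expressed ligands. It had 57.3 and 57.8 CPM in HIF double-knockout libraries, 53.5 and 52.6 CPM in VHL-restored libraries, and 72.6 and 65.6 CPM in parental libraries. Both parental libraries were above the other 4, and they lay further apart from each other than the libraries of either engineered line. VEGFB fell 1.30-fold in VHL-restored cells against parental cells (log2 fold change -0.38 ± 0.07 SE, adjusted p = 2.53e-05, edgeR). In HIF double-knockout cells it fell 1.2-fold (-0.26 ± 0.07, adjusted p = 0.00179, edgeR), a call that was lost without parental replicate 1 (-0.19, adjusted p = 0.0945) and when each library was centred on its own median (-0.14, adjusted p = 0.0961). That scaling moved the median log2 fold change over genes to 0.12, and raised the share of called genes that were higher in HIF double-knockout cells to 59.3%, against 49.1% with TMM scaling. The difference between HIF double-knockout and VHL-restored cells did not pass (0.12 ± 0.07, adjusted p = 0.169, edgeR).

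PGF, the placental growth factor, was close to absent, with 0 and 1 counts in HIF double-knockout libraries, 0 and 0 in VHL-restored libraries, and 3 and 1 in parental libraries. No library passed the floor of 3 counts, which corresponds to 0.101 to 0.132 CPM. Ratios of counts, here and below, are of counts scaled to the TMM-normalized library size. The ratio of HIF double-knockout to parental counts was 0.238, with a 95% counting interval of 0.00483 to 2.40, and that of VHL-restored to parental counts was 0, with an interval up to 1.42. PGF passed in none of the 3 comparisons (adjusted p = 0.417, 0.147 and 0.508 in HIF double-knockout against parental, VHL-restored against parental and HIF double-knockout against VHL-restored cells, edgeR). VEGFD, the other ligand of FLT4 and the closest relative of VEGFC, is in the table under its older symbol FIGF. It had 7 and 5 counts in HIF double-knockout libraries, 1 and 0 in VHL-restored libraries, and 5 and 7 in parental libraries. VHL-restored libraries were below the other 4. The ratio of VHL-restored to parental counts was 0.0780 (95% counting interval 0.00182 to 0.527, adjusted p = 0.0181, edgeR), and the call was lost with DESeq2 (adjusted p = 0.0718), without VHL-restored replicate 2 (log2 fold change -2.54, adjusted p = 0.134) and without parental replicate 2 (-2.95, adjusted p = 0.1). These intervals cover counting error only.

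**Figure D1:**
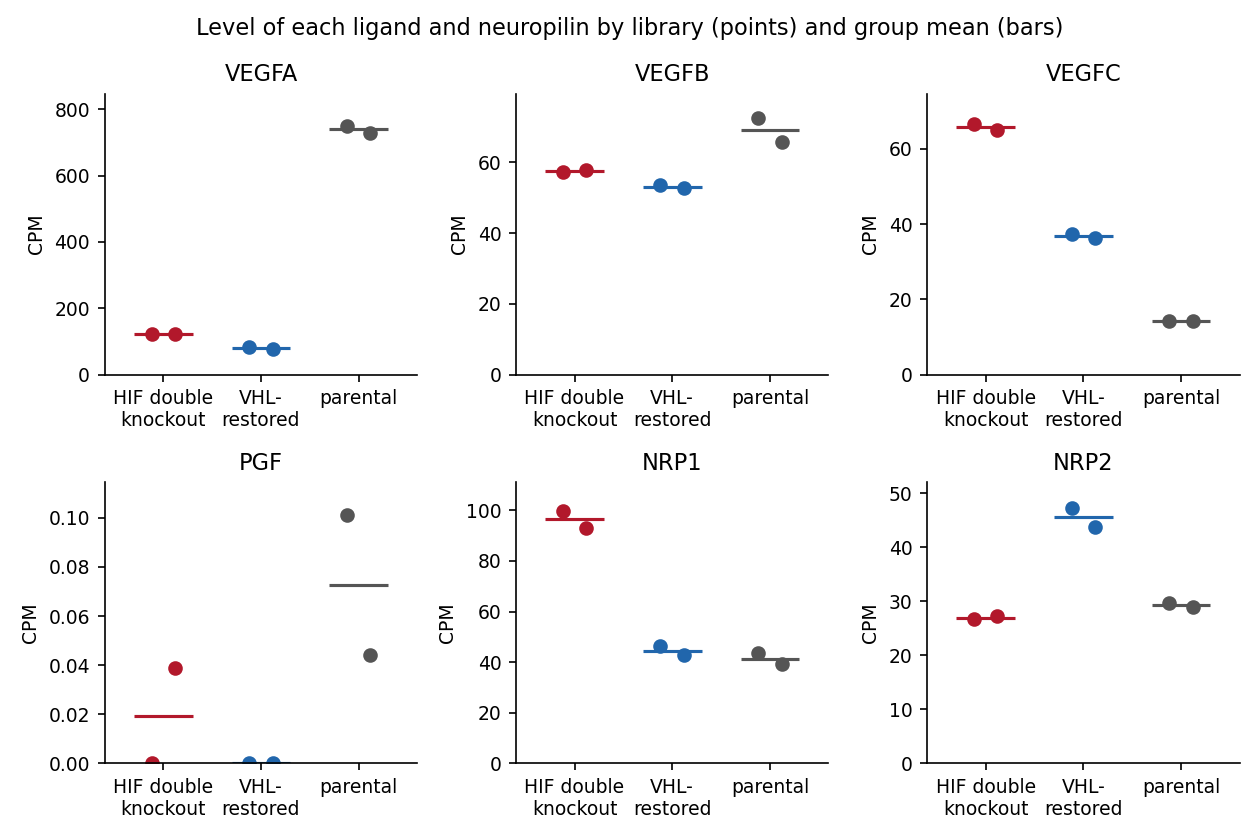
Level in CPM of VEGFA, VEGFB, VEGFC, PGF, NRP1 and NRP2 in each library (points) with the group mean (bars), for HIF double-knockout, VHL-restored and parental cells, each panel on its own axis from 0. VEGFA was highest in parental cells, VEGFC and NRP1 in HIF double-knockout cells and NRP2 in VHL-restored cells, and PGF lay at or under 3 counts in each library.

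Of the receptor tyrosine kinases, KDR could be examined and was not detected. KDR, the main signalling receptor of VEGFA, had 0 counts in each of the 6 libraries, which allows a level of up to 0.101 to 0.132 CPM per library at a floor of 3 counts. FLT1 and FLT4 were not analysed here. Both neuropilins were expressed, and they moved in different groups.

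NRP1, the coreceptor that binds VEGFA and SEMA3A, was higher in HIF double-knockout cells. It had 99.98 and 93.1 CPM in HIF double-knockout libraries, 46.3 and 42.6 CPM in VHL-restored libraries, and 43.6 and 39.2 CPM in parental libraries. HIF double-knockout libraries stood clear of the rest, whereas VHL-restored and parental libraries overlapped. NRP1 rose 2.33-fold in HIF double-knockout cells against parental cells (log2 fold change 1.22 ± 0.07 SE, adjusted p = 3.34e-15, edgeR) and was 2.17-fold higher than in VHL-restored cells (1.12 ± 0.07, adjusted p = 2.31e-14, edgeR). In VHL-restored against parental cells its log2 fold change was 0.10 ± 0.08 and did not pass (adjusted p = 0.304, edgeR), although it did with each library centred on its own median (0.18, adjusted p = 0.0442).

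NRP2, the coreceptor favoured by VEGFC and SEMA3F, was higher in VHL-restored cells. It had 26.6 and 27.3 CPM in HIF double-knockout libraries, 47.2 and 43.8 CPM in VHL-restored libraries, and 29.8 and 28.98 CPM in parental libraries. VHL-restored libraries stood above all others, and HIF double-knockout libraries lay just under the parental ones. NRP2 rose 1.55-fold in VHL-restored cells against parental cells (log2 fold change 0.63 ± 0.08 SE, adjusted p = 2e-08, edgeR). In HIF double-knockout cells it was 1.69-fold lower than in VHL-restored cells (-0.76 ± 0.08, adjusted p = 4.98e-10, edgeR), and its difference from parental cells did not pass (-0.12 ± 0.08, adjusted p = 0.205, edgeR). With each library centred on its own median the last value was 0.00.

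The balance of the neuropilins therefore differed between groups in opposite directions. There were 3.75 and 3.41 NRP1 reads per NRP2 read in HIF double-knockout libraries, 0.980 and 0.972 in VHL-restored libraries, and 1.47 and 1.35 in parental libraries. No group overlapped another, and the mean ratio was 2.54 times the parental one in HIF double-knockout cells and 0.693 times the parental one in VHL-restored cells. An exact two-sided permutation test over libraries gave p = 0.333 for each pair of groups, the smallest value that 2 libraries against 2 allow. A ratio within a library does not depend on its scaling.

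Of the 6 members tested, 2 rose and 2 fell in HIF double-knockout against parental cells, where 54.1% of all tested genes passed an adjusted p of 0.05, 26.6% higher and 27.5% lower. In VHL-restored against parental cells 2 rose and 2 fell, where 54.2% of all tested genes passed, 26.5% higher and 27.7% lower. Between HIF double-knockout and VHL-restored cells 3 were higher and 1 was lower, beside 56.0% of all tested genes, 28.0% higher and 28.0% lower. The share of members that passed was thus close to that of genes at large, and the members differed from each other in direction and size. The shares of all tested genes, here and below, are taken over every gene with at least 1 count. With a filter on low counts (filterByExpr) 14131 genes were tested. Of those, 4938 rose and 5021 fell in HIF double-knockout cells, and 4976 rose and 4980 fell in VHL-restored cells, each against parental cells. The shares that passed were thus higher among better-expressed genes. Both comparisons with parental cells use the same parental libraries. Counted among the 5 expressed members, VEGFA and VEGFC had the 2 changes of greatest size in each of them.

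**Figure D2:**
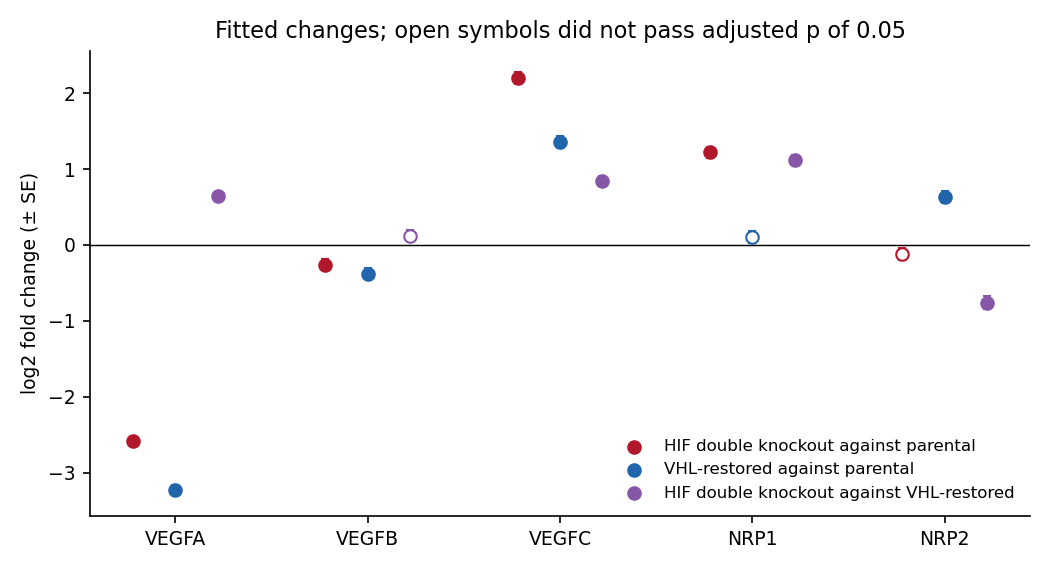
Fitted log2 fold change ± SE of the 5 expressed members in HIF double-knockout against parental, VHL-restored against parental and HIF double-knockout against VHL-restored cells, with open symbols for an adjusted p of at least 0.05. VEGFA lay at -2.59 and -3.23 against parental cells, VEGFC at 2.20 and 1.36, NRP1 rose in HIF double-knockout cells and NRP2 in VHL-restored cells.

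Levels of different ligands can be set side by side only per transcript length, for which the longest protein-coding transcript of GENCODE 29 was used. VEGFA averaged 34.8 ± 0.0322 CPM per kb in HIF double-knockout cells, 22.3 ± 1.22 in VHL-restored cells and 209.2 ± 4.44 in parental cells. VEGFB averaged 41.7 ± 0.255 CPM per kb in HIF double-knockout cells, 38.4 ± 0.430 in VHL-restored cells and 50.1 ± 3.55 in parental cells. VEGFC averaged 31.8 ± 0.572 CPM per kb in HIF double-knockout cells, 17.8 ± 0.331 in VHL-restored cells and 6.91 ± 0.0146 in parental cells. In parental cells the order was VEGFA, VEGFB, VEGFC. In both engineered lines VEGFB came first on this scale, then VEGFA, then VEGFC.

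The summed level of the 5 VEGF family ligands was 108.5 ± 0.350 CPM per kb in HIF double-knockout cells, 78.6 ± 2.00 in VHL-restored cells and 266.3 ± 7.98 in parental cells. VEGFA made up 32.1% ± 0.0739 of that sum in HIF double-knockout cells, 28.4% ± 0.836 in VHL-restored cells and 78.6% ± 0.685 in parental cells. VEGFB made up 38.5% ± 0.360 in HIF double-knockout cells, 48.9% ± 0.696 in VHL-restored cells and 18.8% ± 0.770 in parental cells. VEGFC made up 29.3% ± 0.432 in HIF double-knockout cells, 22.7% ± 0.155 in VHL-restored cells and 2.596% ± 0.0723 in parental cells (SD, n = 2 libraries throughout). With this length, VEGFA held most of the ligand sum in parental cells, and no ligand held most of it in the engineered lines. The length used bears on these shares. With the union of all annotated exons, which counts retained introns of VEGFA as exon, VEGFA made up 11.7% in HIF double-knockout, 9.94% in VHL-restored and 50.3% in parental cells, and VEGFC 37.2% in HIF double-knockout, 27.6% in VHL-restored and 5.79% in parental cells. VEGFB then made up 51.0% in HIF double-knockout, 62.4% in VHL-restored and 43.8% in parental cells. In parental cells VEGFA was then at 51.2 ± 1.09 and VEGFB at 44.7 ± 3.17 CPM per kb, much closer than with the coding transcript. The order of VEGFA and VEGFC in the engineered lines turned with that choice. The sources used here do not name the annotation behind the counts.

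**Figure D3:**
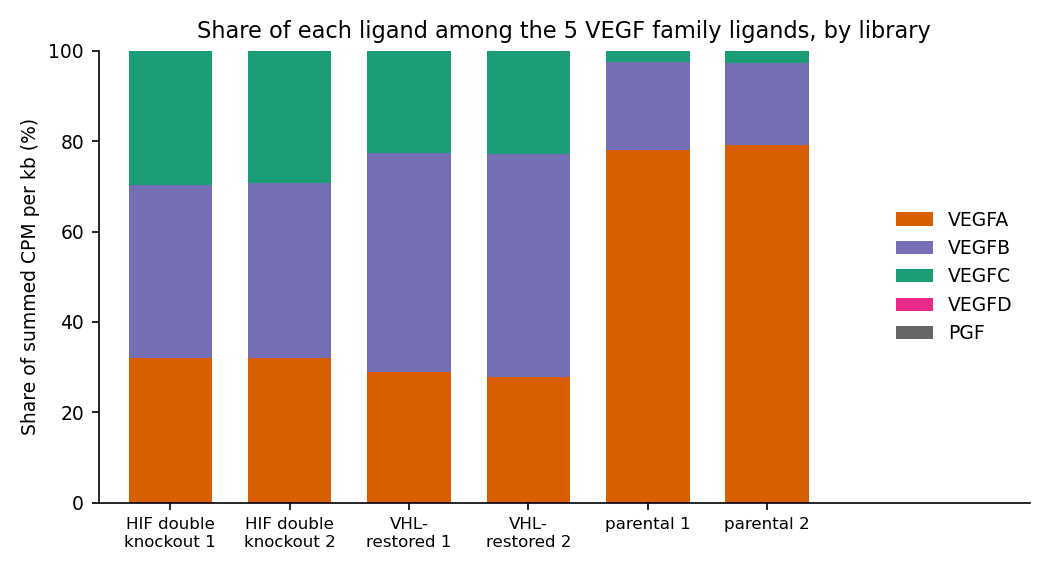
Share of VEGFA, VEGFB, VEGFC, VEGFD and PGF in the summed CPM per kb of these 5 ligands, as stacked bars for each of the 6 libraries. VEGFA filled 78.6% of the bar on average in parental libraries, against 32.1% in HIF double-knockout and 28.4% in VHL-restored libraries, and VEGFD and PGF were too low to be seen.

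Neuropilins are shared with the class 3 semaphorins, secreted guidance cues that signal through plexins. Of 12 such genes tested, 3 rose and 5 fell in HIF double-knockout against parental cells, where 54.1% of all tested genes passed, with a median log2 fold change of -0.16 beside 0.00 over all tested genes. Over the 10 genes with more than 3 counts in either group that median was -0.81. In VHL-restored against parental cells 5 rose and 3 fell (median 0.48, or 1.06 over the genes with more than 3 counts in either group). Of all tested genes 26.5% rose and 27.7% fell there. Between HIF double-knockout and VHL-restored cells 2 were higher and 4 lower, beside 28.0% of all tested genes higher and 28.0% lower. SEMA3F, a repellent ligand of NRP2, had 3.49 and 4.12 CPM in HIF double-knockout libraries, 81.4 and 75.6 CPM in VHL-restored libraries, and 8.19 and 7.94 CPM in parental libraries. VHL-restored libraries were far above all others. SEMA3F rose in VHL-restored cells (log2 fold change 3.28 ± 0.10 SE, adjusted p = 4.85e-24, edgeR) and fell in HIF double-knockout cells (-1.09 ± 0.14, adjusted p = 1.8e-08, edgeR), so that its group means ran in the same order as those of NRP2. SEMA3B, another class 3 semaphorin, fell in HIF double-knockout cells (-2.72 ± 0.66, adjusted p = 6.01e-05, edgeR), with a mean of 0.122 CPM against 0.893 CPM in parental cells. SEMA3B had only 6 and 1 counts in HIF double-knockout libraries, the second under the floor of 3 counts, so the size of its fall is uncertain. SEMA3A, a ligand of NRP1, was at 0.646 ± 0.199 CPM in HIF double-knockout, 2.22 ± 0.0996 CPM in VHL-restored and 0.980 ± 0.139 CPM in parental cells. It was lower in HIF double-knockout than in VHL-restored cells (log2 fold change -1.75 ± 0.29, adjusted p = 1.02e-06, edgeR). Against parental cells SEMA3A rose in VHL-restored cells (1.16 ± 0.25, adjusted p = 0.000154, edgeR). In HIF double-knockout cells it did not pass (-0.60 ± 0.32, adjusted p = 0.118, edgeR).

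Among the plexins, PLXND1, the receptor of SEMA3E on endothelial cells, fell in both engineered lines. It had 16.0 and 16.7 CPM in HIF double-knockout libraries, 27.4 and 23.7 CPM in VHL-restored libraries, and 65.6 and 62.9 CPM in parental libraries. Its log2 fold change was -1.98 ± 0.08 in HIF double-knockout cells (adjusted p = 3.83e-19, edgeR) and -1.33 ± 0.08 in VHL-restored cells (adjusted p = 2.46e-15, edgeR). PLXNA3 fell as well, with log2 fold changes of -1.03 in HIF double-knockout cells and -1.74 in VHL-restored cells. PLXNA4 was low throughout, at 1.80 ± 0.0853 CPM in HIF double-knockout cells, 1.91 ± 0.0772 CPM in VHL-restored cells and 0.206 ± 0.0421 CPM in parental cells, and rose in both (3.07 ± 0.45 and 3.16 ± 0.44, edgeR). SEMA3C, named here after its values were seen, rose in both lines, with log2 fold changes of 1.35 in HIF double-knockout cells and 1.29 in VHL-restored cells, each against parental cells.

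**Figure D4:**
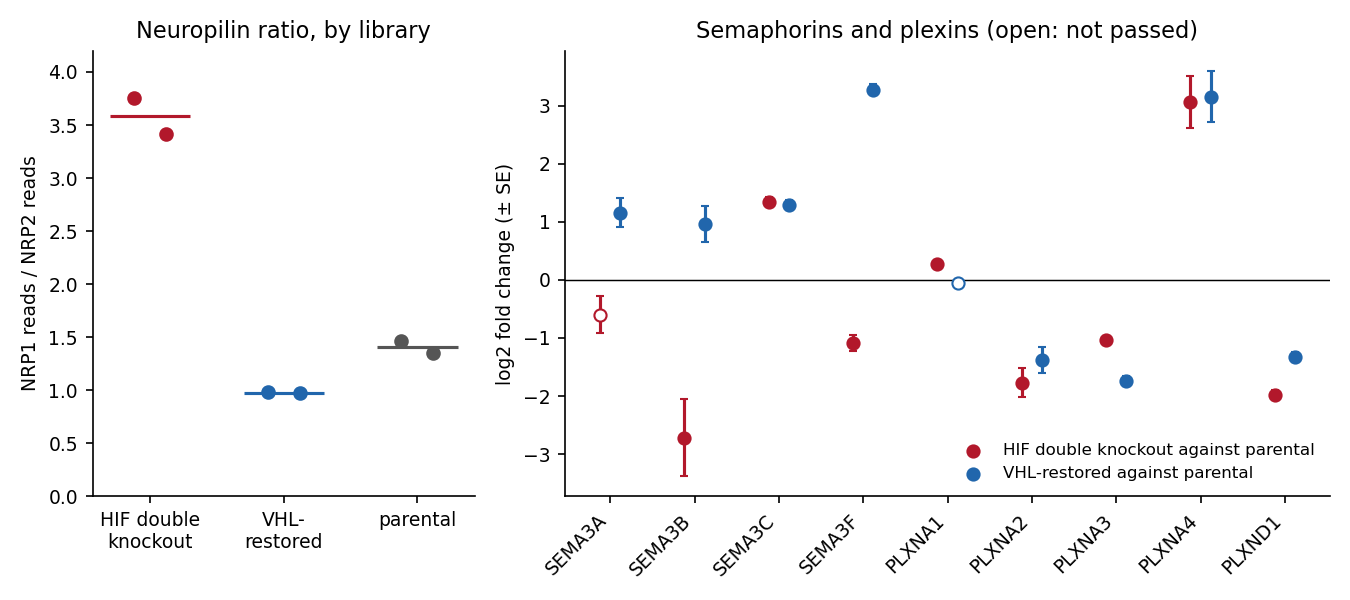
Left, NRP1 reads per NRP2 read in each library (points) with the group mean (bars). Right, log2 fold change ± SE of 9 class 3 semaphorins and plexins in HIF double-knockout against parental and VHL-restored against parental cells, with open symbols where the adjusted p was at least 0.05. The ratio was near 3.58 in HIF double-knockout cells, 0.976 in VHL-restored cells and 1.41 in parental cells, and SEMA3F lay on opposite sides of 0 in the comparisons.

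VEGF proteins are held by heparan sulphate proteoglycans and matrix proteins and are cut or released by proteases. Of 14 genes of binding, processing and storage tested, 8 rose and 3 fell in HIF double-knockout against parental cells (median log2 fold change 0.59, or 0.63 over the 13 genes with more than 3 counts in either group), where 26.6% of all tested genes were higher and 27.5% lower. In VHL-restored against parental cells 5 rose and 3 fell, with a median of 0.20, beside 26.5% of all tested genes higher and 27.7% lower. Between HIF double-knockout and VHL-restored cells 7 were higher and 4 lower, beside 28.0% of all tested genes higher and 28.0% lower. ADAMTS1, a protease that can bind and sequester VEGFA, had 736 and 703 CPM in HIF double-knockout libraries, 375 and 357 CPM in VHL-restored libraries, and 126 and 126 CPM in parental libraries. It rose in HIF double-knockout cells (2.52 ± 0.06, adjusted p = 7.67e-26, edgeR) and in VHL-restored cells (1.54 ± 0.06, adjusted p = 1.77e-20, edgeR), with the groups in the order seen for VEGFC. CTGF, a matrix protein (also called CCN2) that binds VEGFA, had 102.5 and 103.5 CPM in HIF double-knockout libraries, 46.3 and 46.1 CPM in VHL-restored libraries, and 13.6 and 16.5 CPM in parental libraries. Its log2 fold changes were 2.79 ± 0.08 in HIF double-knockout cells and 1.63 ± 0.09 in VHL-restored cells.

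The proteases that act on VEGFC and on matrix-bound ligands did not move as one. ADAMTS3, which cuts the VEGFC precursor, averaged 43.3 ± 1.77 CPM in HIF double-knockout cells, 69.6 ± 2.45 CPM in VHL-restored cells and 20.7 ± 0.995 CPM in parental cells, and rose in both engineered lines (1.07 ± 0.08 and 1.75 ± 0.08, edgeR). CCBE1, its cofactor, averaged under 1 CPM in each group and did not pass. MMP2, a gelatinase, had 2 and 1 counts in HIF double-knockout libraries, 46 and 41 in VHL-restored libraries, and 383 and 245 in parental libraries. MMP2 counts in HIF double-knockout cells were 0.00455 of the parental level (95% counting interval 0.000935 to 0.0134), and in VHL-restored cells the log2 fold change was -2.94 ± 0.18. GPC1, a heparan sulphate proteoglycan that holds VEGFA, rose in HIF double-knockout cells (1.11 ± 0.07, adjusted p = 1.04e-14, edgeR) and was 1.30 ± 0.07 higher there than in VHL-restored cells. VASH1, a vasohibin that restrains vessel growth, averaged 1.11 ± 0.363 CPM in HIF double-knockout, 4.27 ± 0.0223 CPM in VHL-restored and 3.16 ± 0.482 CPM in parental cells. Against parental cells it fell in HIF double-knockout cells (-1.5 ± 0.23, adjusted p = 5.08e-07, edgeR). In VHL-restored cells VASH1 was higher (0.42 ± 0.17, adjusted p = 0.0343, edgeR), a call lost under some alternatives. Between HIF double-knockout and VHL-restored cells it differed by -1.92 ± 0.22 (adjusted p = 1.26e-09, edgeR). MMP9, MMP14, SDC4 and THBS1 are named after their values were seen. SDC4, a syndecan, averaged 234 ± 1.40 CPM in HIF double-knockout cells, 119 ± 0.499 CPM in VHL-restored cells and 118 ± 6.38 CPM in parental cells, the pattern of NRP1. THBS1, an inhibitor of angiogenesis, averaged 684 ± 3.87 CPM in HIF double-knockout cells, 643 ± 31.6 CPM in VHL-restored cells and 673 ± 34.5 CPM in parental cells and did not pass in any comparison.

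**Figure D5:**
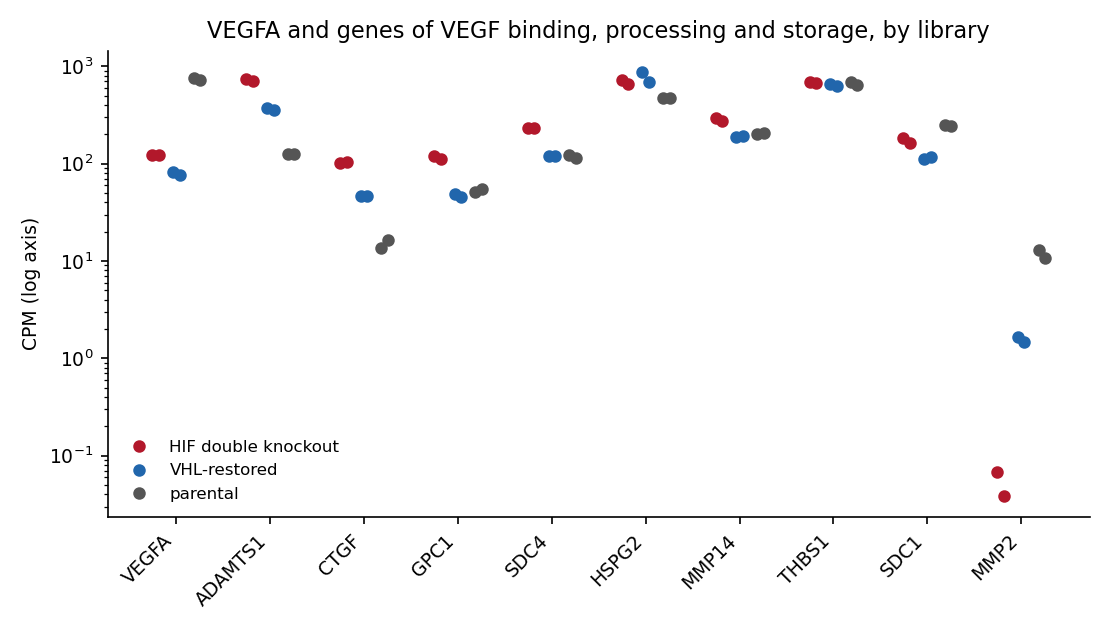
Level in CPM (log axis) of VEGFA and 9 genes of VEGF binding, processing and storage in each library of HIF double-knockout, VHL-restored and parental cells. ADAMTS1 and CTGF ran opposite to VEGFA between HIF double-knockout and parental cells, MMP2 fell to 2 and 1 counts in HIF double-knockout libraries, and THBS1 stayed between 621 and 697 CPM in all libraries.

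Signalling genes downstream of VEGF receptors, many of which serve other receptors too, moved in both directions. Of 27 tested, 7 rose and 11 fell in HIF double-knockout against parental cells, and 10 rose and 10 fell in VHL-restored against parental cells, with median log2 fold changes of -0.13 and -0.01, in comparisons where 54.1% and 54.2% of all tested genes passed. MAPK3, the kinase ERK1, averaged 21.1 ± 0.665 CPM in HIF double-knockout cells, 25.5 ± 1.45 CPM in VHL-restored cells and 57.1 ± 2.25 CPM in parental cells, and fell in both (-1.44 ± 0.08 and -1.17 ± 0.08, edgeR). GAB1, a docking protein, averaged 2.35 ± 0.251 CPM in HIF double-knockout cells, 5.56 ± 0.383 CPM in VHL-restored cells and 7.66 ± 0.360 CPM in parental cells. Its fall was -1.70 ± 0.15 in HIF double-knockout cells (adjusted p = 1.51e-11, edgeR). MAP2K2, a kinase upstream of MAPK3, rose in HIF double-knockout cells (1.04 ± 0.06, adjusted p = 1.09e-15, edgeR) and in VHL-restored cells (0.63 ± 0.06, adjusted p = 1.83e-10, edgeR). MAP2K1, which does the same step, fell in HIF double-knockout cells (-0.55 ± 0.07, adjusted p = 4.37e-08, edgeR) and more in VHL-restored cells (-1.15 ± 0.07, adjusted p = 8.8e-15, edgeR).

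The genes most like each expressed member over the 6 libraries were found by the Euclidean distance between log2 CPM profiles (pseudocount 0.5), each centred on its own mean, among genes of at least 5 CPM on average. For VEGFA these were ARRDC4 at a distance of 0.12, FNIP2 at 0.14 and PFKFB3, an activator of glycolysis, at 0.24. FNIP2 averaged 22.3 CPM in HIF double-knockout cells, 14.7 CPM in VHL-restored cells and 132 CPM in parental cells. VEGFC was nearest to CYP4F35P at 0.09, EPHX1 at 0.20 and RFTN1 at 0.22. NRP1 was nearest to GCNT3 at 0.08, MICAL2 at 0.13 and FXYD5 at 0.14, and NRP2 to KIAA0556 at 0.07, BAG4 at 0.08 and SETD5 at 0.08. VEGFB had RTN2 at 0.05, SLC23A2 at 0.06 and CHSY1 at 0.07. With 3 groups, a short distance says only that levels ran in parallel.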

How the data were processed

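Poly(A) RNA of 6 RCC10 libraries was measured in 3 groups of 2. The authors deposited 1 table of raw counts, whole numbers of reads per gene symbol, although the table's name calls them normalized. Tools named in the submitters' processing notes are HISAT2 2.2.1 and featureCounts 2.0.8 beside Trimmomatic 0.39, FastQC 0.74 and limma 3.58.1. The notes name hg38 and hg19 without saying which applies, so no gene coordinates from the counts are given. The sources used here do not state strandedness, and reads of VEGFA, NRP1 and NRP2 that overlap antisense genes cannot be told apart.

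All 18273 genes with at least 1 count were fitted with edgeR 4.0.16 in R 4.3.3 (TMM factors 0.977 to 1.02, quasi-likelihood test, prior count 0.125, 3 group means, Benjamini-Hochberg adjustment per comparison, threshold 0.05). The common dispersion of 0.00194 is a biological coefficient of variation of 4.41%. The chi-square of replicate counts over its degrees of freedom, 1 under counting error alone, was 4.67 in HIF double-knockout, 6.61 in VHL-restored and 2.58 in parental cells. The fit was run on counts simulated with its own estimated dispersion, which cannot show whether that dispersion is right for 2 libraries per group. Alternatives were DESeq2 1.42.0, limma voom, other scalings and filters, a replicate block and leaving out each library.

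Promoter windows came from RefSeq. Members and gene lists were chosen with earlier results of these data known. The rule for named genes takes the members, the targeted genes, up to 3 genes of each list with the largest absolute log2 fold change among those that passed in a comparison, and the 3 genes nearest to each expressed member. PAX8, CA9, PECAM1, ERG, PTPRC, CD3E and COL3A1 are named as defining markers outside that rule, and some genes it takes from the marker lists are not named. SEMA3C, SDC4, THBS1, CCBE1, MMP9, MMP14, and in the figures PLXNA1, PLXNA2, HSPG2 and SDC1, were added after their values were seen.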

Additional observations from a re-analysis of the deposited data

How the results depend on the processing

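Log2 fold changes were recomputed under up to 14 alternatives for the members, HIF1A, EPAS1, VHL and the genes that the rule takes from the lists. So were the counts of members and of all genes passing. The neuropilin ratio was recomputed only by leaving out 1 library. Not recomputed in this way were the counts and medians of the gene lists, the levels, sums and shares, the ranks and the nearest genes. SEMA3C, SDC4, THBS1, CCBE1, MMP9 and MMP14 were not recomputed either. Each count of genes passing stayed within 1.5 times its value and no member changed sign. No result that passed changed sign. Values that did not pass changed sign 9 times. As log2 fold changes of HIF double-knockout against parental cells, leaving out 1 library at a time gave -0.26 to 0.23 for ANGPTL4 (-0.26 without HIF double-knockout replicate 1 and -0.03 without parental replicate 1), -0.49 to 0.36 for VEGFD (FIGF; 0.36 without parental replicate 2 and 0.06 without HIF double-knockout replicate 2), -0.16 to 0.42 for CSF1R and -0.14 to 4.05 for CD79A. In VHL-restored against parental cells the range was -0.04 to 0.23 for COL1A1. With each library centred on its own median VEGFD was 0.05 in HIF double-knockout against parental cells and PXN 0.02 in VHL-restored against parental cells. Members passing numbered 3 to 4 in HIF double-knockout against parental cells, 4 to 5 in VHL-restored against parental cells and 4 in HIF double-knockout against VHL-restored cells. The calls that changed were those of VEGFB in HIF double-knockout against parental cells (lost without parental replicate 1 and with each library centred on its own median, a scaling added after the data were seen), NRP1 in VHL-restored against parental cells (gained with that scaling) and PGF in VHL-restored against parental cells (gained with limma voom, log2 fold change -2.33, adjusted p = 0.0168, on 4 counts). The cause was not tested. Among the other named genes 12 calls were gained and 72 lost over all alternatives. SEMA3B, GPC1, VASH1 and GAB1 each lost their call in VHL-restored against parental cells under at least 1. Their calls in HIF double-knockout against parental cells did not change. EDN1 lost its call in HIF double-knockout against parental cells, but not the one between the engineered lines. Leaving out 1 library gave 7974 to 10134 genes passing in HIF double-knockout against parental, 7891 to 9671 in VHL-restored against parental and 9019 to 9679 in HIF double-knockout against VHL-restored cells. Replicate numbers did not pair the libraries across all 3 groups. Over 10820 genes, same-numbered deviations correlated at 0.257 for HIF double-knockout with parental cells, and the cause of this was not tested. They correlated at 0.012 for HIF double-knockout with VHL-restored cells and at -0.01 for VHL-restored with parental cells. With the replicate number as a block, 10112 genes passed in HIF double-knockout and 10148 in VHL-restored cells, each against parental cells. Between HIF double-knockout and VHL-restored cells 10458 genes passed, and 4 members passed in each comparison. PGF and VEGFD were too low at this depth for a change to be sized.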

Other observations

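Other secreted angiogenic factors did not follow VEGFA as a group. Of 13 tested, 5 rose and 4 fell in HIF double-knockout against parental cells (median log2 fold change 0.02; 26.6% of all tested genes were higher and 27.5% lower), and 3 rose and 7 fell in VHL-restored against parental cells (median -0.22; 26.5% of all tested genes were higher and 27.7% lower). APLN, the apelin gene, had 0.650 and 0.738 CPM in HIF double-knockout libraries, 0.644 and 0.357 CPM in VHL-restored libraries, and 13.7 and 12.04 CPM in parental libraries, and fell in both engineered lines like VEGFA (-4.22 ± 0.25 and -4.68 ± 0.28, edgeR). IL8, a chemokine that also drives vessel growth, had 20.3 and 23.5 CPM in HIF double-knockout libraries, 14.6 and 15.7 CPM in VHL-restored libraries, and 3.27 and 2.602 CPM in parental libraries, the order of groups seen for VEGFC. EDN1, the vasoconstrictor endothelin, and ANGPTL4, a lipase inhibitor, parted the engineered lines. EDN1 averaged 3.45 ± 0.152 CPM in HIF double-knockout, 0.197 ± 0.0251 CPM in VHL-restored and 4.72 ± 0.190 CPM in parental cells. It differed between the engineered lines (log2 fold change 4.10 ± 0.42, adjusted p = 1.26e-13, edgeR). Against parental cells the log2 fold change of EDN1 was -4.55 ± 0.42 in VHL-restored and -0.45 ± 0.15 in HIF double-knockout cells. ANGPTL4 averaged 9.30 ± 2.22 CPM in HIF double-knockout, 1.41 ± 0.582 CPM in VHL-restored and 9.28 ± 0.405 CPM in parental cells. It too differed between the engineered lines (2.72 ± 0.22, adjusted p = 1.33e-13, edgeR). Against parental cells ANGPTL4 was at -2.71 ± 0.22 in VHL-restored cells. In HIF double-knockout cells it did not pass (0.02 ± 0.14, adjusted p = 0.971, edgeR).

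Among 11 transcription factors and coactivators other than HIF that act on VEGFA, 6 rose and 4 fell in HIF double-knockout against parental cells, and 5 rose and 5 fell in VHL-restored against parental cells, beside the same shares of all tested genes. PPARGC1A, a coactivator that can raise VEGFA without HIF, had 2 and 8 counts in HIF double-knockout libraries, 2 and 0 in VHL-restored libraries, and 1362 and 1001 in parental libraries. Its counts in VHL-restored cells, scaled to library size, were 0.000792 of the parental level (95% counting interval 9.59e-05 to 0.00286), and it fell in HIF double-knockout cells (log2 fold change -7.92 ± 0.49, adjusted p = 5.15e-25, edgeR). JUN, part of the AP-1 factor, averaged 126 ± 4.28 CPM in HIF double-knockout cells, 60.5 ± 1.18 CPM in VHL-restored cells and 42.4 ± 0.725 CPM in parental cells. Of 14 genes of VEGFA messenger RNA stability and splicing, 10 rose and 3 fell in HIF double-knockout against parental cells, with a median of 0.25, where 54.1% of all tested genes passed, and 7 rose and 4 fell in VHL-restored against parental cells, with a median of 0.13, where 54.2% passed. ZFP36, which speeds the decay of AU-rich messenger RNAs such as VEGFA, fell in both (-1.58 ± 0.10 and -1.80 ± 0.11, edgeR), and SRPK1, a kinase that steers VEGFA splicing, rose in both (0.71 ± 0.06 and 0.54 ± 0.06, edgeR). Isoforms cannot be read from counts per gene.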
